A study of Mus musculus with 3 samples.

Results

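Retnlg-low mature neutrophils were the larger part of the neutrophils in the peripheral blood (PB) of naive mice and the smaller part in mice with late leukemia. They were chosen by measured values. A barcode was kept when it had 200 genes or more and no more than 10% of its unique molecular identifiers (UMIs) from mitochondrial genes, and a kept cell was a member when S100a8 and S100a9 together took at least 2% of its UMIs, Camp, Ngp and Ltf together took below 1%, Retnlg took below 0.5%, and Cxcr2, Csf3r, Il1r2 and G0s2 together had at least 2 UMIs. The rule found 2354 members among 12792 kept cells, 1047 of 3811 in the naive mice, 1040 of 4567 on day 11 (D11) and 267 of 4414 on day 14 (D14). The same rule with Retnlg at 0.5% or more gave 1215 Retnlg-high mature neutrophils, and cells with Camp, Ngp and Ltf at 1% or more were called immature neutrophils (323 cells).

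The study placed BBC2 cells, a mouse line of stem cell leukemia/lymphoma (SCLL) driven by a BCR-FGFR1 fusion, into wild type Balb/C mice and took PB from naive mice and from leukemic mice at D11 (intermediate stage) and D14 (late stage). Red cells were lysed and dead cells removed before 10x Genomics 3′ v3 libraries were made. All 3 libraries came from wild type hosts, the leukemia was that of 1 cell line, and the number of mice behind each library was not given in the sources used here. With 1 library per condition no test was possible, so a difference between conditions cannot be told apart from a difference between libraries, and every interval below is a 95% interval that covers counting error only.

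Neutrophils are short-lived granulocytes that leave the bone marrow as their granules are completed. The granule proteins are made in order during maturation, azurophilic ones first, then the secondary granule proteins such as Camp, Ngp, Ltf and Lcn2, and then those of gelatinase granules, while surface receptors such as Cxcr2, the receptor for CXC chemokines, and Csf3r, the receptor for G-CSF, mark the late stages. Retnlg encodes resistin-like gamma, a secreted protein made by neutrophils. Tumors and leukemias are known to draw younger neutrophils into the blood.

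The genes given as markers were found at neutrophil levels in all 3 libraries. Summed over members and scaled to an equal total per library (CPM), S100a8, a subunit of calprotectin, was at 29374 CPM in naive, 24391 at D11 and 26318.5 at D14, against 70.8, 48.9 and 75.2 CPM in lymphoid cells of the same libraries. Csf3r was at 3880, 3415 and 2256 CPM and had a UMI in 100%, 100% and 98.5% of members. After each cell was thinned to 1000 UMIs, Csf3r was found in 96.9%, 94.4% and 90.5% of members against 1.57%, 1.42% and 1.09% of lymphoid cells. Cxcr2 was at 1602, 1523 and 1216 CPM and G0s2, an inhibitor of lipolysis, at 78.4, 162 and 86.2 CPM. These genes were in the rule and were therefore high by choice. Of genes outside the rule, Il1b, the inflammatory cytokine interleukin 1 beta, was found in 98.9%, 99.3% and 92.1% of members and, at equal depth, in 92.7%, 94% and 88.9% against 1.26%, 1.42% and 0.764% of lymphoid cells. Ly6g, the surface antigen by which mouse neutrophils are usually sorted, was the exception, with 22.6, 49.7 and 34.8 CPM and a UMI in 6.30%, 11.8% and 7.87% of members, against 1432, 1791 and 1315 CPM in immature neutrophils.

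The median depth of the members was alike in the 3 libraries, at 3428 UMIs in naive, 3166.5 at D11 and 3415 at D14. The sums behind the values were unequal, 4019522, 4086660 and 1321886 UMIs, so D14 values have the widest intervals, and members over 10000 UMIs held 9.33%, 19.9% and 38.3% of them. UMIs of a 3′ library are counted per transcript end and were not scaled by gene length. The median mitochondrial share was 0.209%, 0.222% and 0.843%. Between any pair of libraries 12 to 18 deposited barcodes were shared, and none of them belonged to a member in both.

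Some members carried RNA of other cell types. Members with at least 3 UMIs of classical monocyte genes (F13a1, Ccr2, Vcan, Ly6c2, Ms4a4c and Fn1), of non-classical monocyte genes (Ace, Pparg and Cd300e), of azurophilic granule genes (Mpo, Elane, Prtn3 and Ctsg) or of lymphoid genes (Cd79a, Cd79b, Cd3e, Cd3g and Ebf1), or with over 1% hemoglobin UMIs, numbered 54 of 1047 in naive, 147 of 1040 at D11 and 42 of 267 at D14. They were large cells, and at D14 these 15.7% of members held 45.7% of the summed UMIs, against 13% of the UMIs in naive and 29.5% at D11. Values without them are called those of the restricted members, of whom there were 993, 893 and 225. They are given for each gene list and for those genes whose difference between naive and D14 is described and turned, crossed 2-fold or moved by over 1.5 times. This choice was made after the data were seen.

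The summed level of red cell genes over all members, led by Hbb-bs, was 13561 CPM in naive, 97977 at D11 and 28248 at D14, and over restricted members 393, 3435 and 1286 CPM. For the 8 classical monocyte markers the sums were 809, 919 and 2104 CPM over all members and 643, 882 and 750 CPM over restricted members, where F13a1 was at 0 at D14 and Mgst1, which neutrophils also express, led in each library. The 8 pro-B leukemia markers summed to 21.1, 23 and 306 CPM over all members and to 19.7, 24.3 and 120 CPM over restricted members, while lymphoid cells had 102, 1937 and 3491 CPM. The lymphoid cells were thus not the same cells in each library, and their 8 T cell markers summed to 2896 CPM in naive, 1076 at D11 and 256 at D14. The 8 basophil markers were all at 0 at D14. Over single members the median level of each of the monocyte, azurophilic and lymphoid gene groups was 0 CPM in every library, and that of hemoglobin was 299.9, 3653 and 1183 CPM.

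Retnlg-low mature neutrophils were a large part of PB cells in the naive library and a far smaller part at D14. Their share of kept cells was 27.5% (Clopper-Pearson interval 26.1 to 28.9) in naive, 22.8% (21.6 to 24.0) at D11 and 6.05% (5.36 to 6.79) at D14. The D14 share was 0.220 times the naive one (0.19 to 0.25), and the D11 share 0.829 times (0.770 to 0.893). The D11 difference turned with the cells counted, to 1.20 times the naive share when cells over 10% hemoglobin were left out of the denominator, whereas the D14 value lay between 0.158 and 0.303 under every alternative run.

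The other neutrophil gates moved the other way. Retnlg-high mature neutrophils were 4.38% of kept cells in naive, 10.1% at D11 and 13.3% at D14, and immature neutrophils were 0.341%, 2.34% and 4.60%. Within the mature neutrophils the Retnlg-low share was 86.2% (84.2 to 88.1), 69.4% (67.0 to 71.7) and 31.2% (28.1 to 34.4), and this share does not depend on the other cells of the blood.

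**Figure D1:**
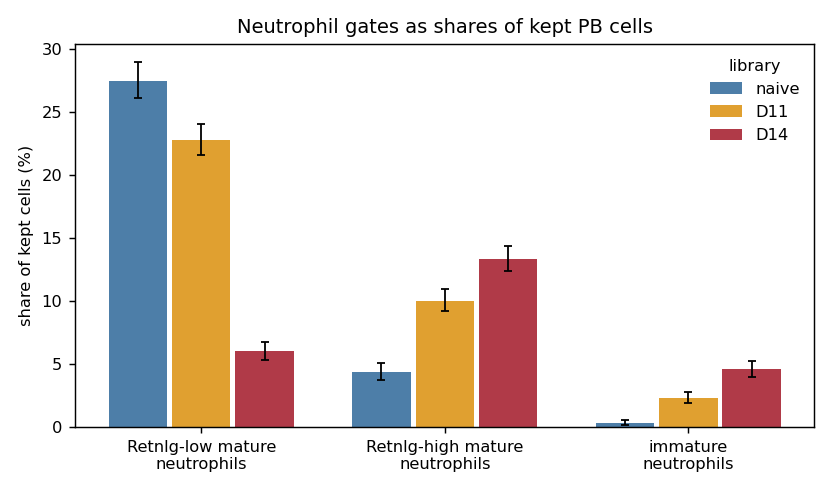
Share of kept PB cells (%, y axis from 0) in the gates for Retnlg-low mature, Retnlg-high mature and immature neutrophils, 1 bar per library, with Clopper-Pearson 95% intervals. The Retnlg-low share goes from 27.5% in naive to 6.05% at D14 while the Retnlg-high share goes from 4.38% to 13.3%.

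The limit at 0.5% cut a continuous range and not a separate type of cell. Retnlg lies at chr16:48872621-48874496 (GRCm38) and was at 1066, 1301 and 1357 CPM over members, against 11600.0, 14930 and 19919 CPM in Retnlg-high cells, levels that follow from the rule. Cells without any Retnlg UMI were 33.3% of members in naive, 32.1% at D11 and 20.6% at D14. Just inside the limit, at 0.4 to 0.5% of UMIs, were 40, 58 and 33 members, and just outside it, at 0.5 to 0.6%, were 34, 49 and 39 cells. The highest share inside was 0.499% in naive, 0.499% at D11 and 0.495% at D14, and the lowest outside was 0.503%, 0.501% and 0.503%. Of all mature neutrophils, those with 2% or more Retnlg made up a small part in naive (0.906% at 2 to 3% and 0.577% above) and a large part at D14 (18.7% and 11.9%).

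**Figure D2:**
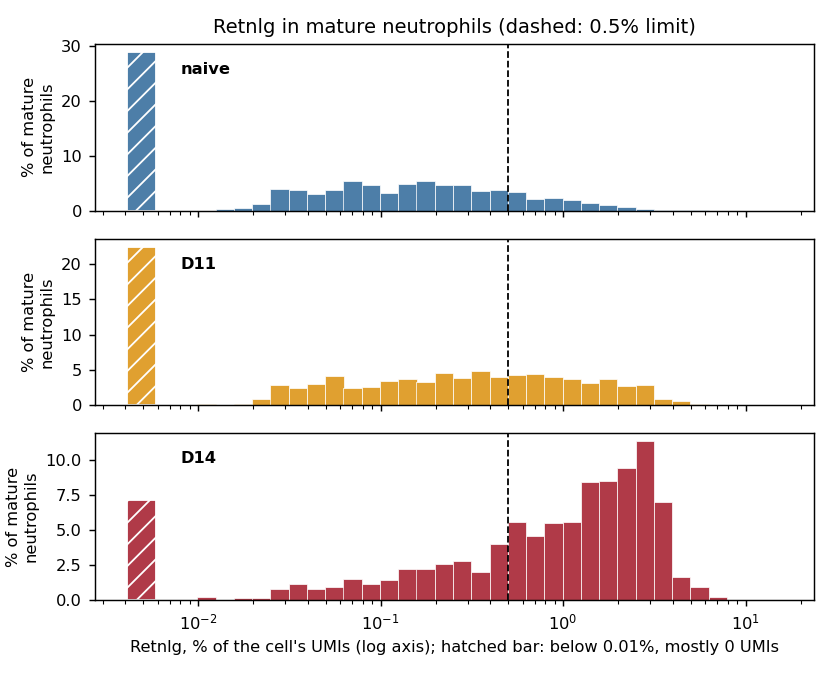
Distribution of Retnlg as a percentage of each cell's UMIs (x axis, log scale) over the mature neutrophils of each library (y axis, % of mature neutrophils), with the 0.5% limit dashed and cells below 0.01%, mostly without a Retnlg UMI, in the hatched bar. No gap is seen at the limit, and the D14 distribution peaks between 1% and 4% while the naive one is spread below 0.5%.

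The genes of members differed little between naive and D11. Among 3031 genes at 50 CPM or more in either library, 18 (0.594%) were 2-fold or more higher at D11 and 26 (0.858%) were 2-fold or more lower, on CPM with 1 added, and among restricted members these were 18 (0.599%) and 12 (0.399%) of 3006. The median log2 ratio of all genes was -0.17 over all members and -0.04 over restricted members, and TMM scaling moved it to 0.03 and gave 31 higher and 10 lower. The red cell genes took the largest part of the sum at D11 (97977 CPM), and their part in the shift of all genes was not tested.

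A few genes were already higher at D11 than in naive. Wfdc17, a secreted protein of the whey acidic protein family, was at 179 CPM (166 to 192) in naive and 387 (368 to 407) at D11. Ier3, an early response gene that limits cell death, was at 121 and 301 CPM, a log2 ratio of 1.32 (1.17 to 1.47). Cebpb, the transcription factor that drives emergency granulopoiesis, was at 736 and 1282 CPM, short of 2-fold. Lower at D11 were Hk2, the enzyme that phosphorylates glucose at the start of glycolysis, from 77.9 to 22.5 CPM, and Cxcl2, a chemokine that attracts neutrophils, from 123 to 49.4 CPM. The stefin genes Stfa2 (105 to 27.4 CPM) and Cstdc5 (559 to 190 CPM), inhibitors of cysteine proteases, were also lower, but they belong to a cluster of near-identical copies among which reads may have been split.

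Differences from naive were more frequent at D14. Of 3429 genes, 447 (13%) were 2-fold or more higher and 146 (4.26%) were 2-fold or more lower over all members, and 148 (4.74%) and 114 (3.65%) of 3122 over restricted members. The excess of higher genes was thus smaller once cells with RNA of other lineages were left out, and it turned after each cell was thinned to 1000 UMIs before the gate, with 181 genes higher and 196 lower. D11 and D14 were both set against the same naive library, so the pair of comparisons is not independent.

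The largest D14 ratios by the naming rule came in part from very few cells. Elane, the protease of azurophilic granules, had 258 UMIs at D14, 250 of them in 1 cell, and was at 0 UMIs in naive and 10 at D11. Prtn3, another azurophilic protease, had 181 of its 235 D14 UMIs in 1 cell, and Hist1h1b, a histone of dividing cells, 176 of 186. These 3 genes therefore describe single cells inside the gate, and over restricted members they were at 0, 2.78 and 8.35 CPM. F13a1, the coagulation factor of classical monocytes, had 663 UMIs in 17 of 267 members and was at 0 over restricted members, a group chosen by that gene among others. Lgals1 was at 15.7, 22 and 247 CPM over all members and at 6.29, 2.78 and 19.5 CPM over restricted ones. S100a10 was at 29.4, 41.6 and 343 CPM and at 6.29, 4.86 and 4.18 CPM. Chil3, a chitinase-like protein of young neutrophils and macrophages, was found in 49 members (18.4%) at D14 and 12 (1.15%) in naive, with 7.71, 16.4 and 908 CPM over all members and 1.72, 1.39 and 69.6 CPM over restricted ones. Vpreb3, a gene of pro-B cells, was at 2.74, 2.45 and 101 CPM in members and at 45.3, 668 and 1596 CPM in lymphoid cells.

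Wfdc17 was found in most members at D14 and in few in naive. The gene (ENSMUSG00000069792, chr11:83703991-83706268, GRCm38) was at 179 CPM in naive, 387 at D11 and 1493 at D14, and at 170, 422 and 2133 CPM over restricted members. It had a UMI in 197 members (18.8%) in naive, 400 (38.5%) at D11 and 203 (76.0%) at D14. At an equal 1000 UMIs per cell these shares were 9.52% (7.80 to 11.5), 22.1% (19.6 to 24.7) and 62.1% (55.8 to 68.1), against 0.251%, 0.158% and 0.546% of lymphoid cells, whose median depths were 8673, 7256 and 28567 UMIs before thinning. The 3 intervals did not overlap. The log2 ratio of D14 to naive was 3.06 (2.94 to 3.19), and 3.65 over restricted members. Retnlg-high cells had 144, 286 and 1011 CPM, a log2 ratio of 2.82, and the difference between the gates was not tested.

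Acod1, the enzyme that makes the immunometabolite itaconate, was at 17.7 CPM in naive, 65.6 at D11 and 192 at D14. Its log2 ratio of D14 to naive was 3.44 (3.06 to 3.84), and 3.83 over restricted members. The Acod1 transcript was found in 4.30%, 13% and 24.7% of members and, at equal depth, in 1.44%, 6.09% and 16.2%, with 0% to 0.218% of lymphoid cells. Hspa1a and Hspa1b encode near-identical inducible HSP70 proteins, among which reads may have been split. Hspa1b was at 6.72, 25.7 and 119 CPM over all members and at 6.58, 26.7 and 139 CPM over restricted members, and Hspa1a at 4.23, 13.5 and 113 CPM and at 4.58, 11.8 and 62.6 CPM. At equal depth the share of members with an Hspa1b UMI at D14, 5.93%, was that of lymphoid cells, 5.90%, so free RNA could not be told apart from the cells' own in that library.

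Cd101, an inhibitory surface protein that mouse neutrophils gain at the last step of maturation, was among the 10 lowest genes from naive to D14. This was so over all members and over restricted members. The gene (ENSMUSG00000086564, chr3:100993529-101029556) was at 384 CPM (365 to 403) in naive, 274 (258 to 291) at D11 and 80.9 (66.3 to 97.8) at D14. The level was thus lower at each later day, with intervals that did not overlap. At equal depth a Cd101 UMI was found in 31.4%, 25.6% and 7.11% of members. The log2 ratio of D14 to naive was -2.25 (-2.54 to -1.96) over all members, -1.71 over restricted members and -2.54 in Retnlg-high cells, where the levels were 446, 241 and 76.8 CPM.

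Slc9a9, a sodium and proton exchanger of endosomes, was at 482, 331 and 128 CPM, and Eif2ak3, the kinase PERK that senses stress in the endoplasmic reticulum, at 270, 160 and 76.4 CPM. Lymphoid cells, whose makeup differed between the libraries, had 415 CPM of Slc9a9 in naive and 115 at D14, and 137 and 42.2 CPM of Eif2ak3. Their log2 ratios of D14 to naive in members were -1.92 and -1.82, and -1.65 and -1.53 over restricted members. Apoe, a lipid carrier of macrophages, was at 129, 64.8 and 39.3 CPM over all members and at 50.3, 62.2 and 18.1 CPM over restricted ones. Also named by the rule were the unstudied transcripts Gm6209 (115, 98.9 and 23.5 CPM, and 125, 123 and 41.8 restricted), Gm39321 (112, 83.7 and 29.5 CPM), Gm13822 (169, 112 and 48.4 CPM) and 4833407H14Rik (106, 90.8 and 31.0 CPM, and 116, 110 and 52.9 restricted). From D11 to D14, Rsad2, Oasl1, Cd101, Basp1 and Slc9a9 had the smallest ratios among genes at 100 CPM or more in either library, and Basp1, a membrane protein of the cell cortex, was at 101 CPM at D11 and 36.3 at D14, and at 128 and 57.1 CPM over restricted members.

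**Figure D3:**
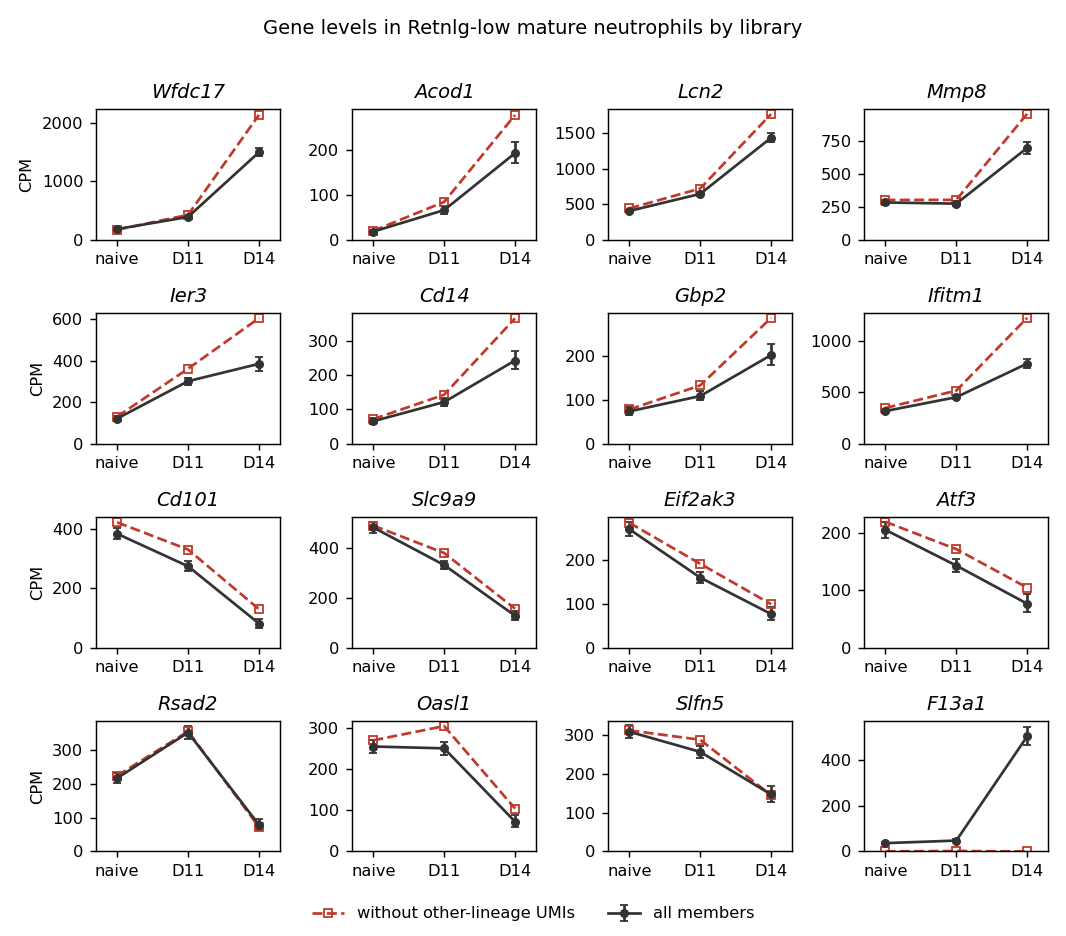
Level (CPM, y axes from 0, own scale in each panel) of 16 genes in Retnlg-low mature neutrophils of the naive, D11 and D14 libraries, over all members (black, Poisson 95% intervals) and over members without UMIs of other lineages (red, dashed). The lines lie close for Rsad2 and part for F13a1, which is at 502 CPM over all members at D14 and at 0 over the restricted ones.

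Of 10 secondary granule genes outside the rule that were measured, 5 were 2-fold or more higher and none lower over all members (4 and 0 over restricted members), against 13% and 4.26% of all genes (4.74% and 3.65% restricted), with a median log2 ratio of 0.81 (restricted 0.70) against -0.08 (-0.07) over all genes. Lcn2, which binds bacterial iron carriers, was at 403, 643 and 1434 CPM and, at equal depth, was found in 24.2%, 33.8% and 62.1% of members against 0.188% to 0.546% of lymphoid cells. Cd177, a surface antigen stored in these granules, was at 41.3, 55.8 and 101 CPM. It met the 50 CPM minimum of the comparison with naive only through D14, which fixed its direction. Among the rule's own genes, Ngp was at 8.71, 86.4 and 253 CPM and Camp at 1.99, 34.0 and 61.3 CPM below the limit the rule set, values that describe the choice.

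Mmp8, the neutrophil collagenase, was at 283 CPM in naive, 275 at D11 and 701 at D14, so that the difference lay between D11 and D14. The log2 ratio of D14 to naive was 1.31 (1.18 to 1.43) for Mmp8 over all members and 1.67 over restricted members. Gelatinase granule and matrix genes as a list had 1 of 8 higher and none lower past 2-fold, a share near the 13% of all genes, with a median log2 ratio of -0.29, and of 0.21 over restricted members. Mmp9, the gelatinase itself, was at 491, 599 and 396 CPM, and 526, 709 and 642 CPM over restricted members, so its direction at D14 turned with the cells used. Padi4, which citrullinates histones when neutrophils release chromatin, was at 73.1, 91.5 and 74.9 CPM.

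Of mature neutrophil genes outside the rule, 4 of 21 measured were 2-fold or more higher at D14 and none lower, against 13% and 4.26% of all genes, and 7 and 0 over restricted members, against 4.74% and 3.65%. Besides Wfdc17 and Mmp8 these were Wfdc21, another secreted whey acidic protein, at 564, 638 and 1259 CPM, and Fpr2, a receptor for formylated peptides, at 125, 137 and 306 CPM. Lrg1, a secreted glycoprotein, was at 394, 609 and 774 CPM (430, 726 and 1215 restricted). The median log2 ratio of this list was -0.14 over all members and 0.41 over restricted members, so its sign turned with the cells used.

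The list of NF-kB feedback genes also held genes of other roles, such as Sod2 and Icam1. Of 13 genes measured, 4 were 2-fold or more higher at D14 and none lower (6 and 0 over restricted members), against 13% and 4.26% of all genes (4.74% and 3.65% restricted). Their median log2 ratio was 0.67 (restricted 0.95) against -0.08 (-0.07) over all genes. At D11 1 of 9 was 2-fold or more higher, beside 0.594% of all genes (1 and 0.599% restricted). By any amount 5 were higher at D11 and 4 lower, beside 25.5% and 74.5% of all genes, with a median of 0.01, and over restricted members 6 and 3, beside 42.6% and 57.4%, with a median of 0.18. Nfkbia, the inhibitor that holds NF-kB in the cytoplasm, was at 462, 730 and 825 CPM (483, 852 and 1098 restricted). Nfkbiz, a nuclear cofactor of NF-kB, was at 543, 734 and 785 CPM (579, 889 and 1250.0 restricted), and Ier3 at 121, 301 and 385 CPM. Sod2, the mitochondrial superoxide dismutase, was at 19.2, 29.1 and 71.1 CPM and Icam1, an adhesion molecule, at 28.6, 26.2 and 70.4 CPM. Both met the 50 CPM minimum only through D14. So did others of the list, as 9 genes were measured at D11 and 13 at D14, over restricted members too. The minimum fixed the direction of such genes, which adds to the higher counts and the medians. Irak2, a kinase of interleukin 1 and toll-like receptor signalling, moved the other way, at 194, 117 and 99.9 CPM.

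Most cytokine and chemokine genes had lower values at D14 than in naive over all members, 10 of 11 measured by any amount, beside 55.4% of all genes, with a median log2 ratio of -0.56, whereas over restricted members 6 of 11 were lower, beside 55.8%, and the median was -0.12. Il1b had the highest level of the list and was at 4008, 4398 and 3396 CPM over all members but at 4340, 5381 and 5544 CPM over restricted ones, so the sign of its D14 difference turned. Osm, a cytokine of the interleukin 6 family, was at 17.4, 36.9 and 53.7 CPM and met the 50 CPM minimum only through D14, which fixed its direction. Past 2-fold at D14 were 1 higher and 1 lower over all members and 1 higher and none lower over restricted ones, against 13% and 4.26%, and 4.74% and 3.65%, of all genes. Cxcl2 was at 123, 49.4 and 81.7 CPM, lowest at D11.

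Receptors of bacterial products and of cytokines were mostly within 2-fold. Cd14, the co-receptor for lipopolysaccharide, was at 65.2, 121 and 243 CPM and at equal depth was found in 5.67%, 10.5% and 24.1% of members, with at most 0.109% of lymphoid cells. It was the 1 pattern recognition receptor of 12 measured that was 2-fold or more higher, beside 13% of all genes, and 1 of 2 among 14 over restricted members, beside 4.74%. Il4ra, a chain of the interleukin 4 receptor, was at 57.2, 60.4 and 107 CPM (59.5, 70.2 and 160 restricted), and Csf2rb, the shared beta chain of the GM-CSF receptor, at 272, 276 and 314 CPM. Tgfbr1, a receptor of TGF beta, was at 195, 138 and 85.5 CPM and was the 1 growth factor or cytokine receptor of 17 that was 2-fold or more lower, beside 4.26% of all genes, and over restricted members, at 189, 153 and 104 CPM, it was short of 2-fold. Among receptors of neutrophil aging and trafficking (4 of 17 higher and 1 lower, and 3 and 0 over restricted members, against 13% and 4.26%, and 4.74% and 3.65%, of all genes), the higher ones were Icam1, Fpr2, Cd274, the checkpoint ligand PD-L1, at 52.5, 71.5 and 116 CPM, and Ltb4r1, the receptor for leukotriene B4, at 39.1, 46.0 and 81.7 CPM (36.0, 39.2 and 61.2 over restricted members). Icam1 and Ltb4r1 met the 50 CPM minimum only through D14, which fixed their direction. The lower one was Ptafr, the receptor for platelet activating factor, at 318, 259 and 150 CPM (346, 309 and 207 restricted). Cxcr4, which draws neutrophils back to the marrow, was within 2-fold at 336, 397 and 184 CPM.

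Of 9 heat shock chaperones measured at D14, 6 were 2-fold or more higher over all members, against 13% of all genes. Over restricted members these were 3 of 8, against 4.74%, with none lower in either. Between naive and D11 6 were measured, so some entered only through D14, as Hspa1a and Hspa1b did. The direction of such genes was fixed by the 50 CPM minimum. The median log2 ratio was 1.25, and 0.73 over restricted members. Hsp90ab1, a constitutive HSP90, was at 122, 116 and 530 CPM over all members and at 84.7, 74.3 and 136 CPM over restricted ones, and lymphoid cells had 816, 1724 and 2156 CPM. Hspa8, a constitutive HSP70, was at 421, 419 and 893 CPM, and 399, 416 and 682 CPM over restricted members. Hsp90aa1 was at 123, 182 and 294 CPM, close to its restricted values of 121, 184 and 269 CPM.

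Immediate early genes respond within minutes to a stimulus. Their median log2 ratio at D14 was -0.04 over all members and 0.33 over restricted members, so the sign turned with the cells used. By any amount 7 were higher and 12 lower over all members, beside 44.6% and 55.4% of all genes. Over restricted members 14 were higher and 4 lower, beside 44.2% and 55.8%. At D11 16 of 18 were higher by any amount in both, beside 25.5% and 42.6% of all genes. Jun was at 111, 205 and 328 CPM and Egr1 at 146, 170 and 233 CPM (158, 205 and 370 restricted), while Atf3, a stress-induced repressor of cytokine genes, was at 205, 143 and 76.4 CPM. Of 19 measured at D14, 3 were 2-fold or more higher and 1 lower, and 3 and 1 of 18 over restricted members. Of 12 survival and death genes 2 were higher and none lower (3 and 0 restricted). These counts over all members were near the 13% and 4.26% of all genes past 2-fold (4.74% and 3.65% restricted). Among the survival genes were Mcl1, which keeps neutrophils alive, at 1426, 1739 and 1415 CPM (1512, 2041 and 1964 restricted), and Cflar, an inhibitor of caspase 8, at 77.9, 85.6 and 164 CPM. Bcl2l11, the pro-apoptotic BIM, was at 185, 153 and 96.8 CPM. Of 17 glycolysis and hypoxia genes measured at D14, 3 were 2-fold or more higher and 1 lower (1 and 1 over restricted members), with a median log2 ratio of 0.32 (restricted 0.06). Hk2, the lower one, was at 77.9, 22.5 and 18.9 CPM, and Slc2a3, a glucose transporter, at 536, 563 and 306 CPM (579, 655 and 497 restricted). Of 13 antioxidant genes, 4 were 2-fold or more higher and 1 lower, and 1 and 0 of 10 over restricted members, with medians of 0.48 and 0.08. At D11 9 were measured, so some of the 13 entered only through D14, which fixed their direction. The lower one was Slc7a11, the cystine transporter that feeds glutathione synthesis, at 410, 415 and 197 CPM (448, 513 and 327 restricted).

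Ribosomal protein genes turned with the cells used. Over all members, 57 of 80 were 2-fold or more higher at D14 and none lower, with a median log2 ratio of 1.46, whereas over restricted members none of 72 was higher, 4 were lower and the median was -0.44. The NADPH oxidase subunit Cybb was at 124, 129 and 465 CPM over all members and at 38.3, 44.1 and 78.0 CPM over restricted members, highest at D14 in both. Past 2-fold at D14 were 13% of all genes higher and 4.26% lower, and 4.74% and 3.65% over restricted members. Antigen presentation genes of MHC class I had 2 of 10 higher (1 over restricted members), among them Nlrc5, their transcriptional activator, at 25.9, 20.6 and 63.5 CPM. Nlrc5 met the 50 CPM minimum only through D14, which fixed its direction. B2m, the light chain of class I, was at 1109, 1169 and 1314 CPM. Of all 21 lists with a measured member at D14, 15 had a median above that of all genes, and 17 of 20 over restricted members. At D11 these were 19 of 20 and 18 of 20. Beside medians of -0.08 and -0.07 over all genes at D14, the immature and suppressor-associated genes had 0.17 over all members and 0.58 over restricted ones, with 3 and 5 of 18 measured 2-fold or more higher and none lower. Transcription factors of late granulopoiesis had medians of -0.04 and 0.41, with 1 of 13 higher in both, and Fc gamma receptors -0.04 and -0.06, with none past 2-fold.

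**Figure D4:**
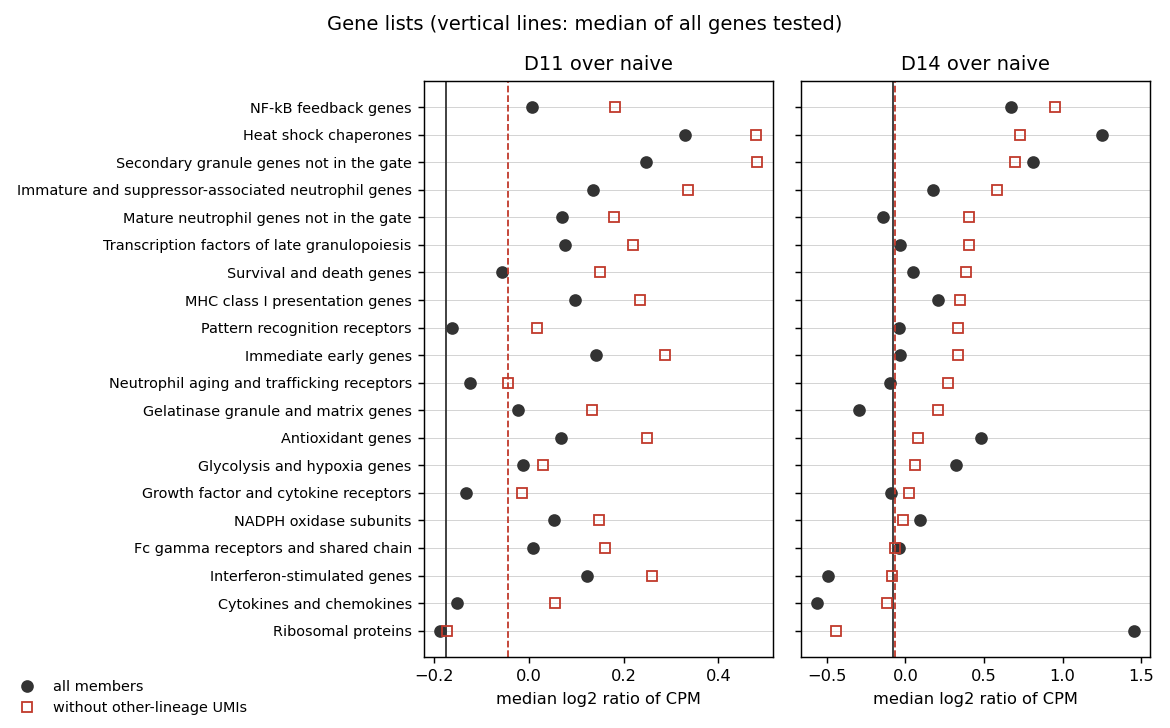
Median log2 ratio of CPM (x axis) of the members of each gene list at D11 over naive and D14 over naive in Retnlg-low mature neutrophils, over all members (filled circles) and without members that carry UMIs of other lineages (open squares). Vertical lines give the median of all genes, -0.08 and -0.07 at D14, and ribosomal proteins stand at 1.46 over all members and -0.44 over restricted ones.

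Some interferon-stimulated genes were lower at D14 and some were higher. Interferons of type I signal to a factor complex that binds the interferon-stimulated response element (ISRE) in promoters, and interferon gamma acts through the gamma-activated site (GAS). Of 23 interferon-stimulated genes measured at D14, 4 (Ifi47, Ifitm1, Gbp2 and Zbp1) were 2-fold or more higher and 5 (Rsad2, Oasl1, Rtp4, Slfn4 and Slfn5) were 2-fold or more lower, against 13% and 4.26% of all genes. Over restricted members 5 were higher and 3 lower, against 4.74% and 3.65%. At D11 none of 22 was past 2-fold in either direction over all members, beside 0.594% of all genes higher and 0.858% lower, and over restricted members 1 was higher, Ifit1 at 57.8 and 117 CPM, beside 0.599% and 0.399%.

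Rsad2, the antiviral enzyme viperin, was at 216 CPM (202 to 231) in naive, 351 (333 to 369) at D11 and 78.7 (64.3 to 95.3) at D14. It was thus highest at D11 and lowest at D14, and restricted members had nearly the same values (223, 354 and 72.4 CPM). Lymphoid cells had 5.07, 31.2 and 3.28 CPM of Rsad2, a low level that was also highest at D11. Isg15, a ubiquitin-like modifier, was at 334, 451 and 198 CPM and Ifit1, which binds foreign RNA, at 53.5, 94.9 and 37.8 CPM, again with the highest value at D11. Oasl1, a relative of the 2′-5′ oligoadenylate synthetases, was at 255, 251 and 72.6 CPM. Slfn5, of the schlafen family, was at 308, 256 and 147 CPM, Slfn4 at 668, 509 and 308 CPM (727, 594 and 454 restricted), and Rtp4, a chaperone of membrane receptors, at 301, 274 and 139 CPM (319, 329 and 202 restricted). Irf7, the factor that amplifies the type I response, was at 176, 147 and 95.3 CPM, short of 2-fold.

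The guanylate-binding protein Gbp2, a GTPase that attacks the membranes around pathogens, was at 73.4 CPM in naive, 108 at D11 and 202 at D14. Its relative Gbp7 was at 111, 126 and 222 CPM (116, 150 and 306 restricted), just under the 2-fold limit with a log2 ratio of 1.0 on CPM with 1 added. Ifi47, an interferon-induced GTPase, was at 19.7, 26.4 and 92.3 CPM, Zbp1, a sensor of nucleic acids, at 26.4, 33.5 and 68.1 CPM, and Ifitm1, a membrane protein that restricts virus entry, at 316, 452 and 779 CPM. All of these were lowest in naive and highest at D14, also over restricted members, where Gbp2 was at 77.8, 133 and 287 CPM and Ifitm1 at 347, 516 and 1225 CPM.

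The promoters of 2 lower genes, Rsad2 and Slfn5, are shown beside those of Gbp2, which was higher, and of its relative Gbp7, which was higher by just under 2-fold, so that both directions can be set side by side. They are the 250 bases before the RefSeq start site (GRCm38.p6), written 5′ to 3′ on the strand of the gene, with capitals for matches to the ISRE core, spelled GAAANNGAAA, and to the GAS, spelled TTCNNNGAA, searched on both strands. Rsad2 lies on the minus strand at chr12:26456453-26456702 and holds an ISRE core that begins 120 bases before the start. Slfn5 lies on the plus strand at chr11:82951852-82952101 with an ISRE core at 155 bases. Gbp2 lies on the plus strand at chr3:142620413-142620662 with an ISRE core at 59 bases, and Gbp7 on the plus strand at chr3:142530086-142530335 with a GAS at 106 and at 87 bases and an ISRE core at 53 bases, none of which overlap.
Rsad2: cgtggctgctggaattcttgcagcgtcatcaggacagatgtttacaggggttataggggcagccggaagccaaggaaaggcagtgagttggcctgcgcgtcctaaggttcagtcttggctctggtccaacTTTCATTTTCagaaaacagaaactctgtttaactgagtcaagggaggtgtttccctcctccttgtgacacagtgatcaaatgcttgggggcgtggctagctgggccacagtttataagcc
Slfn5: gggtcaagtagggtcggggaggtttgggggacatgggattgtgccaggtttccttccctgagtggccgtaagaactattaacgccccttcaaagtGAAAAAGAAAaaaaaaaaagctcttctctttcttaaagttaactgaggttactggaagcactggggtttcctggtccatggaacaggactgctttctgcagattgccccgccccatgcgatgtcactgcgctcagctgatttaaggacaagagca
Gbp2: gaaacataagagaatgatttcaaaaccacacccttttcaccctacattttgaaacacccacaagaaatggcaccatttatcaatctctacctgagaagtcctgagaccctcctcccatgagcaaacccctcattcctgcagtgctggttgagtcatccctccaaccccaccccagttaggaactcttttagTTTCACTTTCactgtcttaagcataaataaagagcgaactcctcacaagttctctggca
Gbp7: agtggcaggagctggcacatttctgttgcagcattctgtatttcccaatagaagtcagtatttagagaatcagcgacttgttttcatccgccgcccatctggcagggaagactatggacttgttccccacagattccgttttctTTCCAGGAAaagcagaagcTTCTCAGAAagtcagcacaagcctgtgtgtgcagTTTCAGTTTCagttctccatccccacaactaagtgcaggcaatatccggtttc

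Genes of both directions held such letters. Of the 35 genes of the list, 29 were matched to a RefSeq promoter, and 13 of these held an ISRE core and 4 a GAS. The ISRE core was found in 2.98% and the GAS in 7.02% of the 32851 promoters of the same length. Of the 5 genes lower at D14 4 had a promoter, 2 with an ISRE core. Of the 4 higher 3 had one, 1 with an ISRE core, and of the 14 within 2-fold 12 had one, 6 with an ISRE core. The ISRE core was thus found among genes of both directions, and a match is a description of letters and not of a factor bound.

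Retnlg-low and Retnlg-high mature neutrophils of the same library differed in few genes that were past 2-fold in every library. The rule used Retnlg in these same cells, so the comparison is a description with no test. Among 2638 genes at 50 CPM or more in either gate in each library, 7 (0.265%) were 2-fold or more higher in Retnlg-low cells in every library and 14 (0.531%) were 2-fold or more lower in every library. In single libraries 62 genes were 2-fold or more higher and 19 lower in naive, 36 and 50 at D11, and 212 and 63 at D14. The counts past 2-fold in every library were 1 higher and 27 lower with TMM factors, and the higher count was 3 with a Retnlg limit of 0.25% and 57 with 1%. Retnlg-low cells were the higher ones in all 3 libraries, by any amount, for 41.8% of genes and the lower ones for 19.1% (49.5% and 14.8% of 2600 over restricted cells).

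Ranked by the smallest ratio over the 3 libraries, Ly6g stood lowest beside Retnlg itself among genes at 100 CPM or more. At D14 Stfa2 was slightly lower. Retnlg-low cells had 22.6, 49.7 and 34.8 CPM of Ly6g in naive, D11 and D14, and Retnlg-high cells 114, 415 and 395 CPM. These are the values for Ly6g in the ratios that follow. The log2 ratios were -2.33 (-2.77 to -1.88), -3.06 (-3.29 to -2.84) and -3.50 (-3.96 to -3.08), and between -3.34 and -2.17 over restricted cells. Mmp8 had ratios of -1.30, -2.19 and -2.05, with 696, 1251 and 2894 CPM in Retnlg-high cells. Syne1, a giant protein that links the nucleus to the cytoskeleton, had ratios of -1.24, -2.04 and -2.30. Mmp25, a membrane-bound metalloprotease, had ratios of -1.07, -1.12 and -1.94, and Wfdc21 of -1.07, -1.44 and -1.26. Stfa2 (-1.70, -2.74 and -3.57) and Cstdc5 (-1.24, -1.57 and -2.51) were lower too, with the limit on near-identical copies given above, and Scrg1, a small secreted protein, had ratios of -1.12, -1.30 and -1.29. Of 9 secondary granule genes measured, 6 were lower in all 3 libraries and none higher, beside 19.1% of all genes lower, and over restricted cells all 9 were lower, beside 14.8%.

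Of the genes higher in Retnlg-low cells, Csf1, the growth factor of macrophages, was at 449, 331 and 303 CPM in those cells. Over restricted members it was at 499, 414 and 507 CPM, so its D14 difference from naive turned with the cells used. Retnlg-high cells had 219, 114 and 102 CPM, with log2 ratios of 1.04 (0.80 to 1.28), 1.54 (1.35 to 1.74) and 1.57 (1.36 to 1.78) over all members. Cd244a, a receptor of the SLAM family, was at 429, 292 and 195 CPM against 204, 88.5 and 66.6 CPM. Slfn5 was at 308, 256 and 147 CPM against 146, 141 and 50.7 CPM. Tnfrsf1b, a receptor of tumor necrosis factor, was at 140 CPM in naive, 140 at D11 and 139 at D14 against 79.3, 76.8 and 69.8 CPM. Steap4, a metalloreductase, had ratios of 0.84, 1.05 and 1.27, Prr5l, a partner of mTORC2, of 0.85, 0.92 and 1.28, Gm2a, a lysosomal activator protein, of 0.81, 1.11 and 1.30, and the long noncoding RNA Lncpint of 0.97, 0.89 and 1.53. Il1b was higher in Retnlg-low cells by a log2 ratio of 0.57, 0.82 and 1.0, and Ptgs2, the prostaglandin synthase COX-2, by 1.05, 1.66 and 2.02.

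Beside the 41.8% of all genes that were higher in Retnlg-low cells in all 3 libraries, the counts were 14 of 18 interferon-stimulated genes, 17 of 18 immediate early genes, 7 of 9 pattern recognition receptors and 11 of 16 growth factor and cytokine receptors, with 0, 0, 0 and 1 lower. Over restricted cells, beside 49.5%, they were 17 of 20, 17 of 18, 11 of 11 and 14 of 17. Of ribosomal protein genes 68 of 75 were higher, and 42 of 64 over restricted cells. Glycolysis and hypoxia genes had 1 of 14 higher and 6 lower, beside 19.1% of all genes lower, and 1 of 13 and 9 over restricted cells, beside 14.8%.

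**Figure D5:**
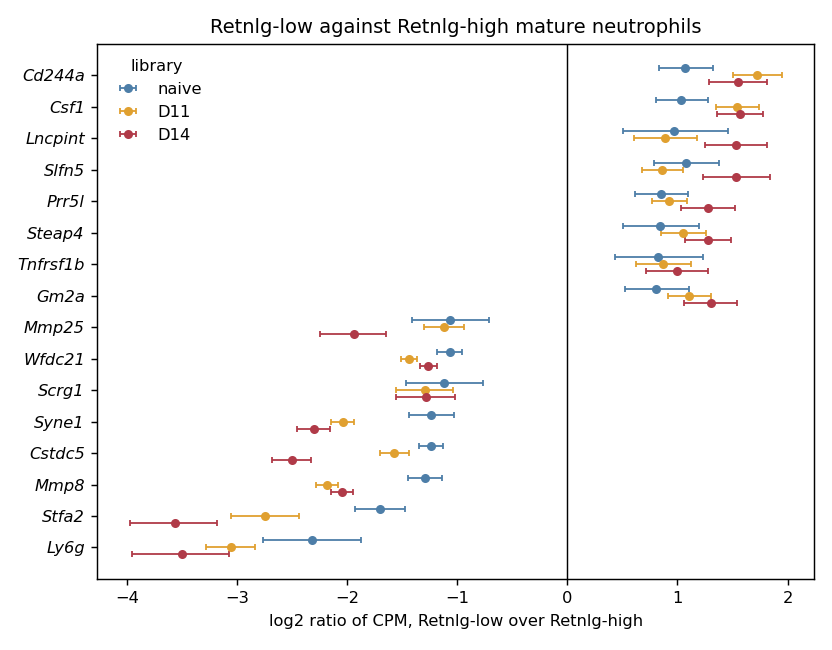
Log2 ratio of CPM in Retnlg-low over Retnlg-high mature neutrophils (x axis) of the 8 highest and 8 lowest genes by the naming rule, 1 point per library with exact conditional binomial 95% intervals. Every point of the upper 8 genes lies above 0 and every point of the lower 8 below it, with Ly6g between -2.33 and -3.50.

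Ly6g, Csf1 and Mmp8, chosen here after their values were seen, also differed along the range of Retnlg inside the gate, while some others of the 16 genes, such as Syne1 (181, 151 and 217 CPM in naive members), did not follow an even course. Ly6g was at 12, 17 and 65 CPM in naive members without a Retnlg UMI, with Retnlg above 0 and below 0.25%, and with 0.25 to below 0.5%. At D11 it was at 12, 36 and 134 CPM, and at D14 no Ly6g UMI was found among the 314736 UMIs of the 55 members without Retnlg, beside 35 and 71 CPM in the other bins. Csf1 ran the other way, at 601, 410 and 317 CPM in naive, 504, 303 and 193 at D11, and 410, 310 and 170 at D14. Over restricted members Csf1 was at 622, 482 and 324 CPM in naive and at 1060, 504 and 214 CPM at D14, so that the D14 level in members without Retnlg was below the naive one over all members and above it over restricted ones. Mmp8 was at 204, 272 and 481 CPM in naive and at 318, 646 and 1243 CPM at D14. In each bin the D14 level of Mmp8 was above the naive one, so the direction was the same along the range of Retnlg.

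Wfdc17 differed by day in every bin. It was at 137, 203 and 163 CPM in naive, 589, 320 and 317 at D11, and 1287, 1582 and 1497 at D14 from the lowest to the highest bin of members. At D11 it was thus highest in members without Retnlg, and over restricted members this was so at D14 too (2395, 2222 and 1830 CPM). Lcn2 was at 391, 390 and 476 CPM in naive and 1204, 1403 and 1752 CPM at D14. Rsad2 was at 225, 202 and 257 CPM in naive, 391, 358 and 281 at D11, and 67, 88 and 68 at D14. In Retnlg-high cells at 1% or more, Rsad2 was at 63, 106 and 65 CPM in naive, D11 and D14, and in those at 0.5 to below 1% at 135, 234 and 81 CPM.

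The shift of members toward higher Retnlg within the gate at D14, where 20.6% and not 33.3% had no Retnlg UMI, accompanied the differences given here. Wfdc17, Lcn2, Mmp8 and Rsad2 at D14 differed from naive in the same direction in each of the 3 bins. Of the 20 genes divided in this way, 15 differed at D14 from naive in 1 direction in all 3 bins of members, 7 higher and 8 lower, and over restricted members these were 10 and 5. The exceptions were Il1b, Ly6g, Mmp25, Syne1 and Tnfrsf1b over all members and Csf1, Ly6g, Slfn5, Stfa2 and Tnfrsf1b over restricted ones. The 20 were the 8 highest and 8 lowest genes between the gates, together with Wfdc17, Lcn2, Il1b and Rsad2, picked with results of these data known. Genes outside these 20 were not divided by Retnlg, so no share over all genes can be set beside the counts.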

How the data were processed

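PB leukocytes of naive mice and of BBC2-engrafted mice at D11 and D14 were measured in 3 single-cell libraries. The authors aligned and counted the reads with Cell Ranger (5.0.1 in the matrix header, 7.1.0 with mm10 in the submitters' processing notes) and deposited filtered matrices of raw UMI counts, without normalization, clusters or cell names, of 5386 barcodes and 30362408 UMIs (naive), 8536 and 57640396 (D11) and 9337 and 65861863 (D14). Cells were gated by the rule given in the report, and members and gene lists were chosen with earlier results of these data known. Of 32285 gene identifiers 32235 were found in GENCODE vM21 (GRCm38), which gave positions.

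UMIs were summed over the members of each library and given as CPM. CPM have exact Poisson intervals, ratios exact conditional binomial intervals and shares Clopper-Pearson intervals (scipy 1.17.1), all at 95%. A gene entered a comparison with at least 50 CPM in either library, and 2-fold counts, list medians and the ranking of genes used CPM with 1 added, while other ratios had nothing added. A gene below the minimum in 1 library of a pair entered only through the other, which fixed its direction. The genes named were the 10 highest and 10 lowest from naive to D14 at 100 CPM or more with the same sign at D11, the 5 highest and 5 lowest from D11 to D14 at the same minimum, the 8 highest and 8 lowest in Retnlg-low over Retnlg-high cells by their smallest ratio over the libraries, and members of the lists, and some of them are not reported here. Shares of cells at equal depth used cells thinned to 1000 UMIs, leaving out 7 naive, 6 D11 and 14 D14 members that were shallower, and lymphoid cells had at least 3 UMIs of Cd79a, Cd79b, Cd3d, Cd3e and Cd3g and below 2% S100a8 and S100a9. Doublets were scored with Scrublet (scanpy 1.11.5) and kept, 32, 53 and 12 of the members being among those marked at 0.8% per 1000 cells. TMM (edgeR 4.0.16) and DESeq2 (1.42.0) factors were alternatives for scaling only. The procedure was checked on simulated data.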

Additional observations from a re-analysis of the deposited data

How the results depend on the processing

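The share of kept cells at D14 was below that of naive under every alternative run. As a multiple of naive it was 0.184 with Retnlg below 0.25% and 0.303 below 1%, 0.158 over all deposited barcodes, 0.279 under a stricter cell filter (500 genes, 5% mitochondrial UMIs), 0.268 after thinning to 1000 UMIs before the gate, 0.293 over cells with at most 10% hemoglobin and 0.294 over all gated neutrophils. The D11 multiple turned to 1.09, 1.15 and 1.20 under that filter, thinning and the hemoglobin denominator. It was 0.90 with Retnlg below 1%, 0.917 with S100a8 and S100a9 at 5% or more, 0.638 over all deposited barcodes, 0.750 for restricted members, 0.755 without members over 1% hemoglobin and 0.757 over all gated neutrophils. The cause was not tested. Of mature neutrophils the multiple was 0.761 and 0.874 at D11 and 0.302 and 0.498 at D14 with Retnlg below 0.25% and 1%, and at D14 0.420 with Camp, Ngp and Ltf below 0.25% and 0.307 with S100a8 and S100a9 at 5%.

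Counts of genes past 2-fold changed with the genes and cells used. With 20 and 200 CPM as the minimum there were 46 and 7 higher and 71 and 6 lower at D11, and 1007 and 143 higher and 279 and 49 lower at D14. With TMM and with DESeq2 factors there were 31 higher and 10 lower at D11, and 358 and 356 higher and 215 and 228 lower at D14, where TMM set the median of all genes at -0.22. At D11 the lower count was 16 without members over 10000 UMIs, 12 for restricted members, 11 without members over 1% hemoglobin, 17 with CPM that leave out gate, ribosomal, mitochondrial and hemoglobin genes and 15 as the mean of per-cell CPM. At D14 the higher count was 140 without members over 10000 UMIs, 148 for restricted members, 183 with S100a8 and S100a9 at 5%, 181 after thinning (with 196 lower) and 208 as the mean of per-cell CPM. Between the gates, genes higher in every library numbered 3 and 57 with Retnlg limits of 0.25% and 1%, 12 without cells over 10000 UMIs, 13 without doublets and after thinning, 14 without cells over 1% hemoglobin, 1 with TMM or DESeq2 factors and 3 with the reduced CPM. Genes lower numbered 8 with the 0.25% limit, 7 after thinning and 27 with TMM or DESeq2 factors. Of 67 named ratios past 2-fold, 1037 of 1139 alternative values were past it in the same direction and 5 had the other sign, with 1 CPM added: Prtn3 -1.02 after thinning, F13a1 -0.0917 without cells over 10000 UMIs and -0.36 for restricted members, S100a10 -0.49 for restricted members and Stfa2 0.16 with Retnlg below 1%. The median of ribosomal proteins at D14 was -0.26 without cells over 10000 UMIs, -0.44 for restricted members and -0.0165 after thinning. Restricted members and members over 10000 UMIs were alternatives chosen after seeing the data. With 1 library per condition no replicate could be left out, and no paired analysis was possible because no condition had a second library.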

Other observations

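The naming rule was also run over restricted members, a choice made after the values were seen, and it named a largely different set of higher genes at D14. Only Acod1 and Hspa1b of the 10 were the same. Upp1, the uridine phosphorylase, was at 17.4, 74.3 and 132 CPM over restricted members of naive, D11 and D14, with at most 0.298 CPM in lymphoid cells. Abca13, a large lipid transporter, was at 14.3, 34.7 and 110 CPM, with at most 1.01 CPM in lymphoid cells. Cx3cr1, the receptor for fractalkine, was at 25.2, 34.0 and 171 CPM, and Pam, the enzyme that amidates peptides, at 9.72, 34.0 and 116 CPM. Slc24a3, an exchanger of sodium, calcium and potassium, was at 5.43, 9.03 and 116 CPM. Ahnak, a giant scaffold protein, was at 26.3, 38.2 and 276 CPM with 255, 352 and 522 CPM in lymphoid cells. Ebf1, the B cell factor, was at 5.15, 18.1 and 110 CPM beside 939, 3032 and 3325 CPM in lymphoid cells.

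Of the 10 lower genes 6 were the same. The leading other gene was Rnase6, a secreted ribonuclease with antibacterial activity, at 128, 69.8 and 32.0 CPM over restricted members and 125, 71.5 and 49.2 CPM over all members. Ndrg1, a gene induced by low oxygen, was at 114, 119 and 32.0 CPM over restricted members, so that its difference lay between D11 and D14, while lymphoid cells had 11.7, 35.2 and 121 CPM.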
